A study of Mus musculus with 4 samples.

Results

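The genes described are those of the mitochondrial pyruvate dehydrogenase step: the kinases Pdk1, Pdk2, Pdk3 and Pdk4, the phosphatases Pdp1 and Pdp2, the complex subunits Pdha1, Pdhb and Dlat, and the pyruvate carrier subunit Mpc1. They were taken by name, with earlier results of these data known, as all probe sets annotated to exactly 1 of these symbols; no measured value enters the rule. All 10 genes were found among 18193 genes on the array, on 18 probe sets, and 5 of them had more than 1 probe set. The brightest probe set of a gene, by mean signal over the 4 arrays, stands for it, and the others are set beside it. Of the 10 genes, 8 reached the median gene signal of 178.8 and entered the test across 9097 genes. Pdk2 and Pdp2 did not.

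The samples were cultures of C2C12, a mouse myoblast line that leaves the cell cycle and fuses into myotubes when serum is lowered. All 4 cultures were switched from 10% fetal bovine serum to 2% horse serum, both with 25 mM glucose. They received vehicle (2 arrays, called control 1 and 2), tranylcypromine (TC, 1 array), which also blocks monoamine oxidases, or S2101 (1 array), a compound known here by its code name. Both compounds are labelled as inhibitors of the histone demethylase LSD1, RNA was collected after 48 h, and the labels give no dose. The labels do not state that separate cultures were used, so a p-value here reflects the spread among these arrays alone, which may be technical, and with 4 arrays the precision is limited. Values are MAS5 signals, the brightness of a probe set on a linear scale after each array was set to a trimmed mean of 500. A difference is taken on log2(signal + 50), which understates the change of dim genes. Signals of different probe sets are not on a common scale, so levels are compared between arrays and not between genes. The exception is the summed signals of marker lists, which mostly reflect the brightest probe sets.

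Pyruvate dehydrogenase turns pyruvate from glycolysis into acetyl-CoA inside mitochondria and so decides whether carbohydrate carbon enters the citric acid cycle. Its kinases phosphorylate the alpha subunit of the decarboxylase and switch the complex off, and its phosphatases remove the phosphate and switch it on. In skeletal muscle Pdk4 is known as the kinase whose transcript rises with fasting and fatty acid use, while Pdk1 is known as a target of the hypoxia factor HIF. Transcript levels do not measure the phosphorylation or activity of the complex.

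Of the 8 tested genes, Pdk4 alone passed the test with the inhibitors (2 arrays, 1 per compound) against control (2 arrays). It rose, none fell, and 7 did not pass (limma, Benjamini-Hochberg adjusted p at or below 0.05). This fit takes the 2 compounds as 1 group, so a difference between them enters its SE and p as spread within the group. Over all 9097 genes 8.01% passed, 4.28% higher and 3.74% lower, so 1 of 8 is near the background and is no result about the group. Both inhibitor arrays lay above both controls for 5 of the 8 genes and below them for 1, and 2 overlapped, beside 51.1% of all tested genes that lay beyond both controls. The median difference of the 8 genes was 0.09, against 0.01 over all tested genes.

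**Figure D1:**
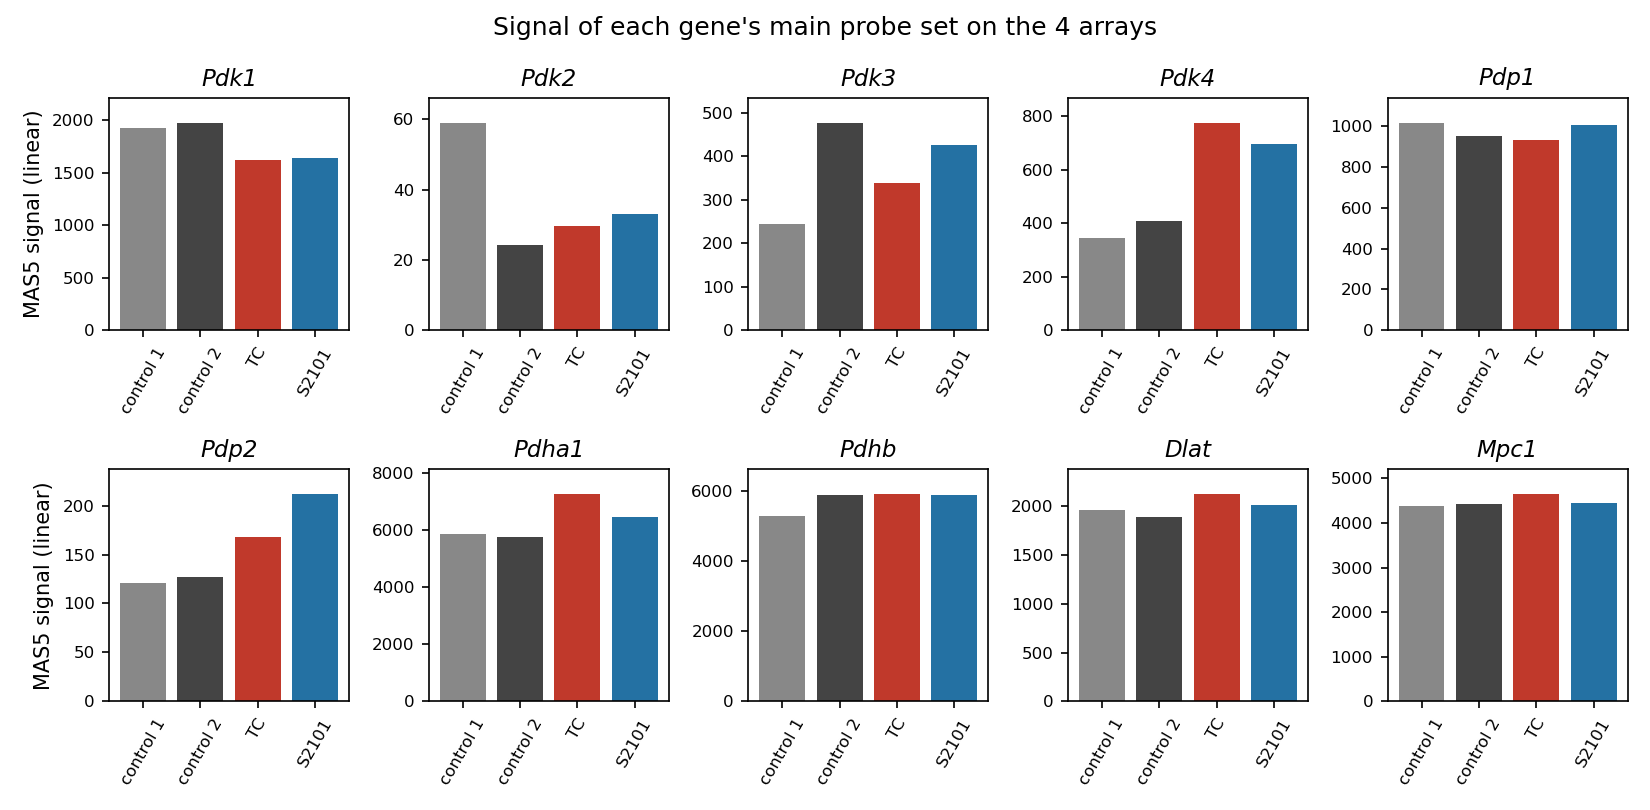
MAS5 signal (linear axis from 0, each panel with its own scale) of the main probe set of the 10 genes on the 4 arrays, 1 bar per array. Pdk4 stands at 345 and 407 on the control arrays and at 776 and 697 with TC and S2101, while Pdk2 and Pdk3 differ more between the control arrays than between the groups.

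Pdk4 encodes the kinase that rises in fasted muscle. Its signal was 345 on control 1, 407 on control 2, 776 with TC and 697 with S2101. The inhibitor arrays were both well above the controls, with no overlap, and mean signal was 1.96 times that of control. On the log2 scale the difference was 0.89 ± 0.12 (SE; 95% interval 0.61 to 1.16; adjusted p = 0.00204, limma), and 37 of 9097 tested genes had a difference at least this high, Pdk4 included. The control arrays differed by 0.21 on the same scale. The array has a single probe set for Pdk4, so no other probe set bears on it. With every probe set of 1 symbol tested, an alternative added after the data were seen, the adjusted p of Pdk4 was 0.0638 (limma). There 0 of the 18 probe sets passed, beside 0.306% of all 34945. Of the 18, 4 had an unadjusted p under 0.05 (limma), a level not counted over all probe sets. In the main fit on genes 3 of the 8 were under that level, beside 2029 of all 9097 tested genes (limma). With a filter at the 75th percentile of signal Pdk4 is too dim to be tested.

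The difference was present with each compound. Pdk4 was higher by 0.96 ± 0.15 with TC (adjusted p = 0.00535, limma) and by 0.81 ± 0.15 with S2101 (adjusted p = 0.0123, limma), where 8.18% and 6.71% of tested genes passed. These comparisons share the control arrays and take the lone array to vary as the controls do. TC minus S2101 was 0.15 for Pdk4 (95% interval -0.24 to 0.53; adjusted p = 0.84, limma), an interval that holds differences of either sign. Of 9097 genes 0.033% differed between the compounds and none of the 8 did, all with an unadjusted p above 0.05. Without the filter on dim genes the adjusted p for Pdk4 was 0.129 with TC and 0.176 with S2101 (limma), and without the intensity trend in the variance no gene of the group passed for either compound, so these calls end. The call for both inhibitors held without the filter (adjusted p = 0.0337, limma), where 1.46% of 18193 genes passed.

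The upstream stretches of 3 genes are shown. Pdk4 and Pdha1 are the genes of this group that passed for the inhibitors or for 1 compound in the fit on brightest probe sets. Pdk1 is the tested kinase that stood lower with the inhibitors, without passing. Each run holds the 250 bases before an annotated RefSeq start (GRCm38.p6), 5′ to 3′ on the gene's strand, with capitals at matches of the motifs searched. Promoter entries were matched for 9 of the 10 genes. Pdk1 has a further annotated start, which is not shown.

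Pdk4, chr6:5496279-5496528, minus strand: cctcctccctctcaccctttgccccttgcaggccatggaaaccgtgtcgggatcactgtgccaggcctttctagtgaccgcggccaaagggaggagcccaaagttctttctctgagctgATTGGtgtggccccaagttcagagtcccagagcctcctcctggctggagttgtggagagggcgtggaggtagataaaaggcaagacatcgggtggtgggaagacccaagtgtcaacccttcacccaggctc
Pdk1, chr2:71872974-71873223, plus strand: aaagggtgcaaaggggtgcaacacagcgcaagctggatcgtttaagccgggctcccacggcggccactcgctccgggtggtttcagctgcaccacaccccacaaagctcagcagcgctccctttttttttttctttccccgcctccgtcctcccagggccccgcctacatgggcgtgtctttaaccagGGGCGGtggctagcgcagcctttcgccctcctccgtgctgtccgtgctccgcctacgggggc
Pdha1, chrX:160138431-160138680, minus strand: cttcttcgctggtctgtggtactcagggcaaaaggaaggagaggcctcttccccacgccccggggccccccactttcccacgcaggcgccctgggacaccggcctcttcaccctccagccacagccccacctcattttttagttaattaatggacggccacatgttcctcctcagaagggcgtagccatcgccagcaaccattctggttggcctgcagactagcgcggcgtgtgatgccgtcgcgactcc

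The motifs were searched on both strands of these 250 bases, and each share is over 32851 mouse promoters of the same length. The Pdk4 run holds CCAAT, the CCAAT box, read on the other strand with its first base 131 bases before the start (33.8% of promoters hold it). The Pdk1 run holds GGGCGG, a GC box, 62 bases before the start (32.7%). The Pdha1 run holds no match of any motif searched. None of AGGTCA (a nuclear receptor core, 14% of promoters), GTAAACA (a forkhead core, 3.17%), ACGTG (the core of HIF sites, 16.6%), TTGCNNAA (a C/EBP core, 9.56%) or TATAAA (12.4%) was matched in the 3 runs. A match or its lack describes these letters only. The Pdk4 run has 6 CpG dinucleotides, the median of all promoters, while the Pdk1 run shown has 19 and the Pdha1 run 15.

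Pdk1 encodes a widely expressed kinase of the complex. Its signal was 1922 and 1972 on the controls, against 1614 under TC and 1639 under S2101. Both inhibitor arrays lay below both controls, which were close together. The difference was -0.25 ± 0.08 (95% interval -0.43 to -0.08), with an unadjusted p of 0.00943 and an adjusted p of 0.0835 in the fit across all genes (limma), so it did not pass. The differences with TC (-0.26) and S2101 (-0.24) were alike in size and did not pass either (adjusted p = 0.11 and 0.16, limma). All 4 Pdk1 probe sets had a negative difference, of -0.25, -0.29, -0.24 and -0.14 from the brightest to the dimmest, and none passed. The second brightest had signals of 980 and 864 on the controls, against 879 under TC and 625 under S2101. In that probe set the TC array lay between the controls.

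Pdk3, a further kinase, differed most between the control arrays. Its signal was 243 on control 1, 476 on control 2, 338 with TC and 425 with S2101. Both inhibitor arrays lay between the controls, which differed by 0.84 on the log2 scale. The difference of 0.13 ± 0.23 did not pass (95% interval -0.39 to 0.65; adjusted p = 0.81, limma), and it was -0.29 without control 1 and 0.55 without control 2, so 1 control array decides its sign. Pdk2, a kinase known to be abundant in muscle, was dim here. Its signals were 59.0 and 24.2 on the controls, against 29.7 under TC and 33.1 under S2101, about or below the offset. The inhibitor arrays lay between the controls, and a difference of this probe set was not detectable at these signals (-0.14 ± 0.23; adjusted p = 0.855 without the filter on dim genes, limma).

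**Figure D2:**
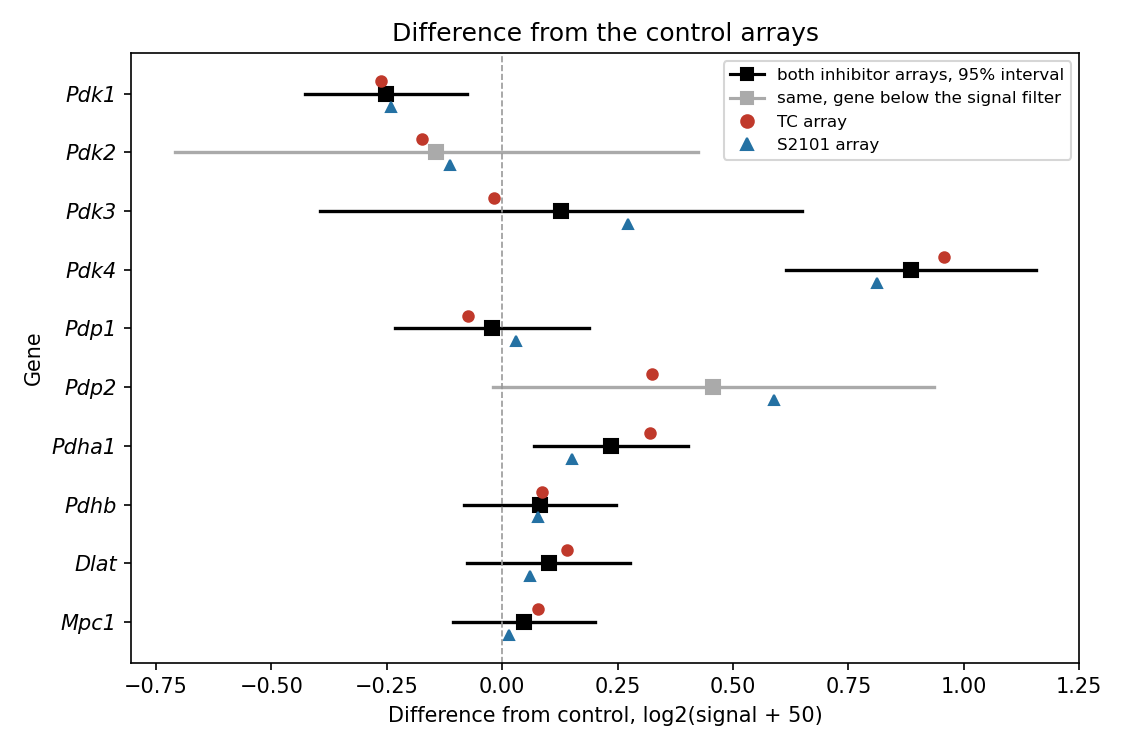
Difference from the control arrays on log2(signal + 50) for the 10 genes. Squares with bars give both inhibitor arrays with the 95% interval of the fit (grey where the gene was below the signal filter, from the fit without it), circles the TC array and triangles the S2101 array. The Pdk4 interval runs from 0.61 to 1.16, and those of Pdk1 and Pdha1 lie on opposite sides of 0 without passing after adjustment.

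Pdp1 encodes the catalytic phosphatase that reactivates the complex. Its signal was 1017 and 954 on the controls, against 934 under TC and 1006 under S2101. The groups overlapped, and the difference of -0.02 ± 0.09 (95% interval -0.23 to 0.19; adjusted p = 0.921, limma) did not pass. Its other probe set, about as bright, had signals of 887 and 1034 on the controls, against 803 under TC and 1148 under S2101. There the TC array lay below and the S2101 array above both controls, with a difference of 0.00 for the pair. Pdp2 encodes the other phosphatase catalytic subunit and lay below the filter. Its signal was 121 and 127 on the controls, against 168 under TC and 212 under S2101. Both inhibitor arrays were above both controls, which were close together. The difference was 0.46 ± 0.20 in the fit without the filter (95% interval -0.02 to 0.94; adjusted p = 0.375, limma) and did not pass. With the probe sets of each gene averaged Pdp2 entered the test, and it passed with S2101 (0.59) but not for both inhibitors.

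Pdha1 encodes the alpha subunit of the decarboxylase, the part that the kinases phosphorylate. Its signal was 5850 and 5749 on the controls, against 7250.2 under TC and 6450 under S2101. Both inhibitor arrays were above both controls, the TC array more so. The difference was 0.24 ± 0.08 (95% interval 0.07 to 0.40; unadjusted p = 0.0104, adjusted p = 0.0884, limma) and did not pass for both inhibitors. With TC alone Pdha1 rose by 0.32 ± 0.07 (adjusted p = 0.0244, limma), while the S2101 array stood at 0.15 ± 0.07 (adjusted p = 0.259, limma). TC minus S2101 was 0.17 (95% interval -0.01 to 0.35; adjusted p = 0.604, limma), so a difference between the compounds was not shown. Pdha1 lost its call with TC without the filter (adjusted p = 0.181, limma). Its other probe set had signals of 1494 and 1329 on the controls, against 1805 under TC and 1480 under S2101. In that set only the TC array lay above both controls, and the difference for the pair was 0.21 ± 0.11.

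Pdhb encodes the beta subunit of the same enzyme. Its signal was 5276 and 5875 on the controls, against 5914 under TC and 5879 under S2101. The S2101 array exceeded control 2 by a few units, and the difference of 0.08 ± 0.07 (95% interval -0.08 to 0.25; adjusted p = 0.576, limma) did not pass. The other Pdhb probe set was dim, with a mean signal of 92.5, and its groups overlapped. Dlat encodes the acetyltransferase core of the complex. Its signal was 1956 and 1889 on the controls, against 2122 under TC and 2007 under S2101. The inhibitor arrays were slightly above the controls, by 0.10 ± 0.08 (95% interval -0.08 to 0.28; adjusted p = 0.51, limma). Its main probe set is of the x_at kind, whose probes can match other transcripts too, but both other Dlat probe sets also had positive differences, of 0.08 and 0.17. Mpc1 encodes a subunit of the carrier that brings pyruvate into mitochondria. Its signal was 4379 and 4425 on the controls, against 4648 under TC and 4449 under S2101, a difference of 0.05 ± 0.07 (95% interval -0.11 to 0.20; adjusted p = 0.755, limma). The 95% intervals of Pdhb, Dlat and Mpc1 all end at 0.28 or lower on the log2 scale.

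**Figure D3:**
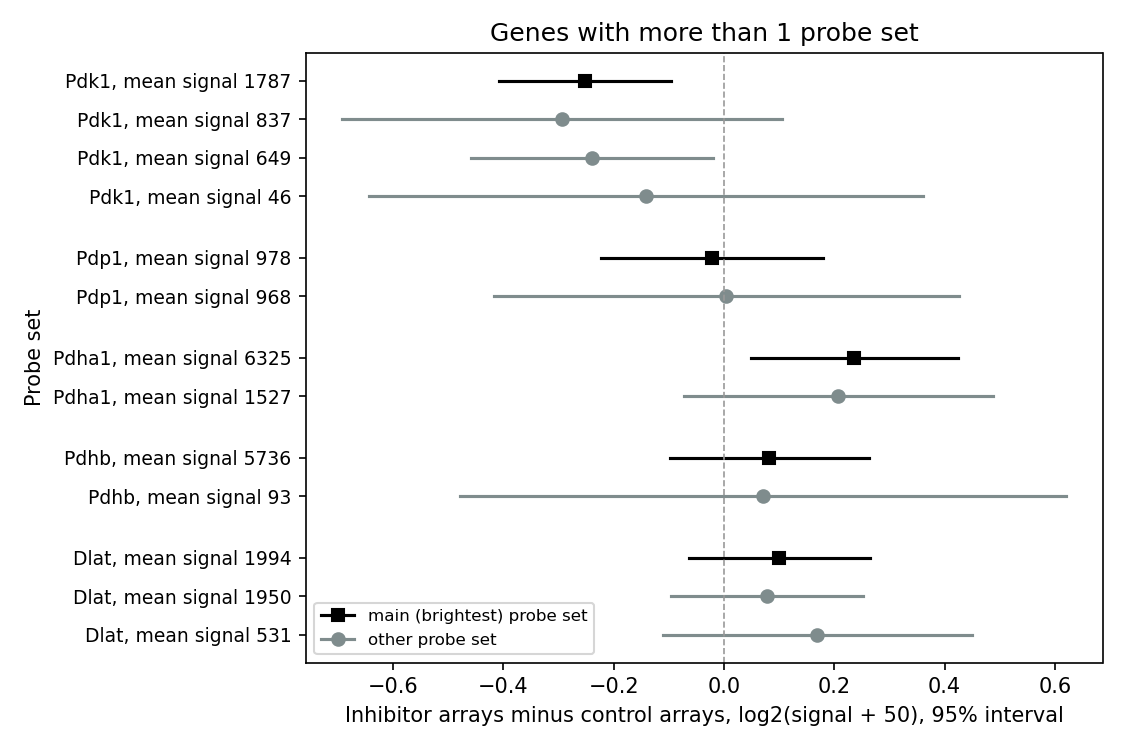
Difference of the inhibitor arrays from the control arrays on log2(signal + 50), with 95% intervals, for every probe set of the 5 genes that had more than 1, labelled with mean signal. The 4 Pdk1 probe sets lie below 0, the Dlat, Pdha1 and Pdhb probe sets above it, and the Pdp1 pair at -0.02 and 0.00.

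**Figure D4:**
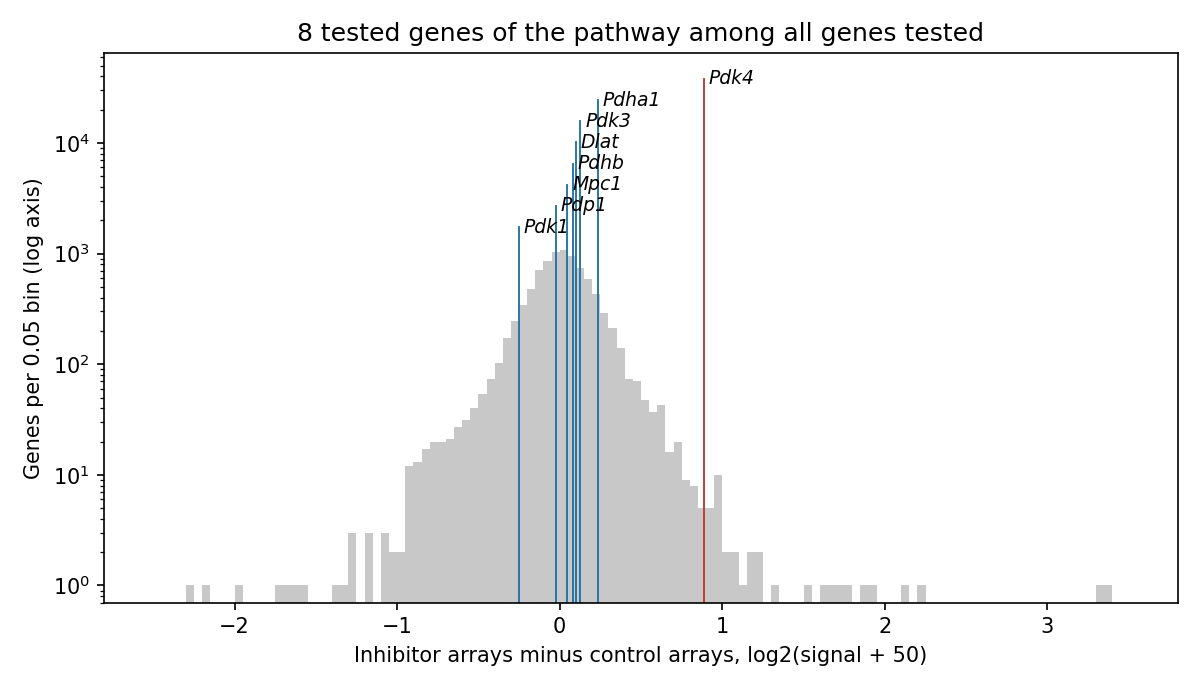
Number of genes (log axis) by difference between inhibitor and control arrays on log2(signal + 50) for the 9097 tested genes, with lines at the 8 tested genes of this step. Pdk4, at 0.89, lies in the upper tail, and the other 7 lie between -0.25 and 0.24.

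The tested genes with the profile most like that of Pdk4 were found by the root mean square distance between mean-centred log2 values on the 4 arrays, among 9096 genes. They were Cst6, a cysteine protease inhibitor (distance 0.0540), Plcg2, a phospholipase C (0.0575), Msln, which encodes the surface protein mesothelin (0.0684), Gdpd1, a phosphodiesterase family gene (0.0693), and Syt11, a synaptotagmin (0.0787). Cst6 had signals of 326 and 363 on the controls, against 779 under TC and 671 under S2101. All 5 were higher with the inhibitors, by 0.81 to 0.98, and had TC above S2101, as Pdk4 did. Their choice by likeness on these same arrays leads to such values, so the likeness is no separate result. With 4 arrays many genes can share such a shape.

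**Figure D5:**
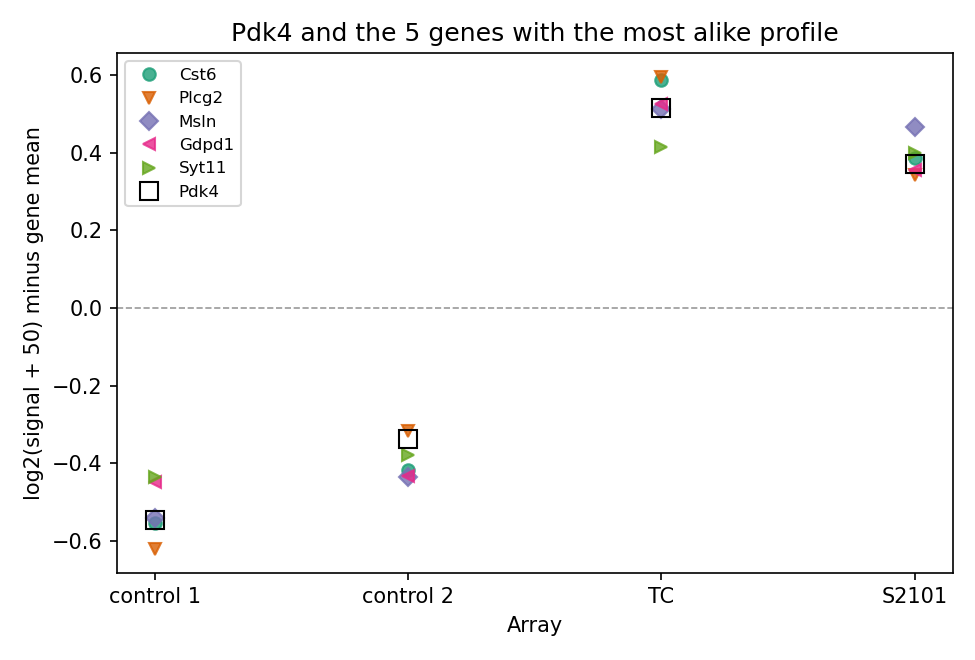
log2(signal + 50) minus the gene's mean over the 4 arrays, for Pdk4 (open squares) and the 5 tested genes nearest to it. In each of these genes both control arrays lie below 0 and both inhibitor arrays above it, to which the choice of the 5 by likeness leads.

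Other genes around the complex came from 7 lists with 83 gene symbols (Ero1l and Ero1a being names of the same gene), of which 57 were tested: 4 rose, 2 fell and 51 did not pass. The share that passed, 10.5%, is near the 8.01% over all tested genes, and the counts of single lists below stand beside that background too. Among the partners of the complex 0 of 4 tested genes passed (limma). These were Dld, the dehydrogenase subunit (-0.12 ± 0.10), Pcx, which carboxylates pyruvate (0.29 ± 0.13), Pdhx (0.04) and the phosphatase regulator Pdpr (-0.03). At an unadjusted p under 0.05 the list had 1 gene, and its median was 0.00. Of 8 tested genes of lipoate and thiamine supply, the cofactors of the complex, none passed (limma; 1 at an unadjusted p under 0.05; median 0.10); Nfu1, an iron-sulfur carrier, stood at 0.18 ± 0.07 and Lipt1, a lipoyl transferase, at 0.17 ± 0.16. Of 7 related oxoacid dehydrogenase genes none passed (limma; 1 at an unadjusted p under 0.05; median 0.02), with Bckdha at 0.26 ± 0.11 and the phosphatase gene Ppm1k at 0.23 ± 0.21.

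Of 12 tested genes of pyruvate and lactate handling, 1 rose and 11 did not pass. The median was 0.11, and 2 had an unadjusted p under 0.05 (limma). Acly, which makes cytosolic acetyl-CoA from citrate, rose from 3819 and 3999 to 4885 with TC and 4781 with S2101 (0.30 ± 0.07; adjusted p = 0.0253, limma). That call ended without control 1 (adjusted p = 0.191), without control 2 (0.0851) and without TC (0.0568, limma). The main Acly probe set is of the x_at kind. Other Acly probe sets stood at 0.37 and 0.25, and dim ones at 0.42, 0.08 and -0.01. Lactate dehydrogenase Ldha, named after its values were seen, stood at -0.05 ± 0.08.

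Pdk4 is a known target of the PPAR receptors. Of 8 other tested PPAR targets 2 rose and 6 did not pass, where 4.28% of all tested genes rose; the median was 0.09, and with so few genes nothing particular to the list is read from this. The lipid droplet gene Plin2 rose from 5948 and 6077 to 9729 with TC and 9234 with S2101 (0.65 ± 0.07; adjusted p = 3.84e-04, limma). The fatty acid binding protein Fabp3 rose from 711 and 738 to 1351 and 995 (0.64 ± 0.13; adjusted p = 0.0146, limma), a call that ended without TC (0.43; adjusted p = 0.0599, limma). The other Fabp3 probe set was dim and stood at -0.23 ± 0.26, and with averaged probe sets Fabp3 stood at 0.21 (adjusted p = 0.317, limma). Angptl4, a lipase inhibitor and PPAR target named after its values were seen, stood at -0.21 ± 0.10 and did not pass. The receptor genes themselves were too dim to be tested, with signals of 27.3 to 45.1 for Ppara, 117 to 174 for Ppard and 39.7 to 118 for Pparg over the 4 arrays.

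Of 8 tested transcription factors known to act on Pdk4, 1 rose and 7 did not pass. The median was 0.07, and 2 had an unadjusted p under 0.05 (limma). Cebpb rose from 2274 and 2295 to 3184 with TC and 2970.1 with S2101 (0.42 ± 0.08; adjusted p = 0.00745, limma). Foxo3, a forkhead factor named after its values were seen, stood at 0.51 with TC (adjusted p = 0.0389, limma) and 0.06 with S2101, and TC minus S2101 did not pass (adjusted p = 0.464, limma). The glucocorticoid receptor Nr3c1 (0.07) and Foxo1 (-0.06), likewise picked with their values known, did not pass. Ppargc1b had the largest difference among the tested genes of the list, 0.44 ± 0.13, and did not pass (adjusted p = 0.0647, limma). Foxo4 (-0.16), Rxra (-0.12) and Esrra (0.07) did not pass either.

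Of 10 tested HIF targets, the list to which Pdk1 belongs by its known regulation, 2 fell and 8 did not pass, where 3.74% of all tested genes fell. The median was -0.09, and 2 had an unadjusted p under 0.05 (limma). With so few genes nothing particular to the list is read from this. The collagen prolyl hydroxylase P4ha1 fell from 2653 and 2635 to 2022 with TC and 1762 with S2101 (-0.48 ± 0.09; adjusted p = 0.00767, limma). Ndrg1, a stress-responsive gene, fell from 3330.1 and 3529 to 2532 and 2613 (-0.41 ± 0.07; adjusted p = 0.00789, limma), a call that ended without control 2 (adjusted p = 0.0700, limma). The main Ndrg1 probe set is of the x_at kind, and the other Ndrg1 probe sets stood at -0.22, -0.32, -0.27 and -0.60. The HIF subunit gene Hif1a (-0.03 ± 0.06), which the list includes, and the target Vegfa (-0.10 ± 0.09) were picked with their values known and did not pass. Ero1a (0.23 ± 0.11), Kdm3a (0.10) and Egln3 (0.04) stood higher, with both inhibitor arrays above both controls. Bnip3 (-0.18), Higd1a (-0.17) and Egln1 (-0.09) stood lower, with both inhibitor arrays below both controls. None of Ero1a, Kdm3a, Egln3, Bnip3, Higd1a and Egln1 passed. Both inhibitor arrays also lay below both controls for Vegfa, P4ha1 and Ndrg1. Over all tested genes 51.1% lay beyond both controls. Without the filter on dim genes the calls of Acly (adjusted p = 0.0840), Fabp3 (0.112) and P4ha1 (0.0544, limma) ended. Without the intensity trend those of Acly (adjusted p = 0.109), Fabp3 (0.0615) and Ndrg1 (0.0530, limma) ended, and with averaged probe sets that of Acly (0.243) too. Plin2 and Cebpb passed in all 11 alternatives taken for the list genes. These did not include the test of every probe set, where Pdk4 did not pass.

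Markers of the labelled cell type were present: all 8 genes of differentiating muscle were bright enough to test, none passed (limma; 2 at an unadjusted p under 0.05), and their summed signal was 76879 and 76686 on the controls, against 82492 under TC and 74511 under S2101. The 3 genes of undifferentiated myoblasts, Myf5, Myod1 and Pax7, were bright enough to test as well, and none passed (limma). They summed to 5604 and 6031 on the controls, against 5596 under TC and 6308 under S2101. Among markers of other cells, the 3 adipocyte genes with a probe set summed to 33.9 to 71.1 and the 3 endothelial genes to 35.2 to 121 on any array. Of 4 smooth muscle genes 2 were tested. Tagln fell (-1.60 ± 0.09), and Acta2 did not pass (-0.16 ± 0.06, adjusted p = 0.152, limma). The dim Myh11 stood at 15.0 and 7.40 on the controls, against 35.7 with TC and 25.5 with S2101. The dim Cnn1 stood at 58.2 and 8.97, against 3.30 and 2.16. The list summed to 35857 and 34405 on the controls and to 29822 and 28654 with TC and S2101. Acta2, at 31972 and 30622 on the controls, makes up most of these sums. Of the neuronal and leukocyte markers 1 of 4 each was bright enough to test, Nefl (-0.46 ± 0.15) and Cd14 (0.07 ± 0.15), and neither passed for both inhibitors (limma). With S2101 alone Nefl fell (-0.68; adjusted p = 0.0289, limma), and with TC it stood at -0.25 (adjusted p = 0.376, limma). The part of the Nefl difference and of the Tagln fall in the Pdk4 result was not tested. In such bulk RNA more cells with a transcript and more transcript per cell cannot be told apart.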

How the data were processed

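Gene expression was measured on Affymetrix arrays, 1 per sample, from 250 ng of total RNA. The values deposited by the authors are linear MAS5 signal intensities. MAS5 and Affymetrix Expression Console are named in the submitters' processing notes, with versions, settings and scan batches not given there. The deposited intensities have a 2% trimmed mean of 500.0 on every array. Symbols came from the platform annotation; 0 of the 10 needed an update against the mouse gene table.

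Signals were turned into log2(signal + 50) here and tested with limma 3.58.1 under R 4.3.3 (a moderated linear model whose variance prior follows intensity; Benjamini-Hochberg over all genes tested, threshold 0.05), after checks on simulated data. The inhibitor fit had 2 residual degrees of freedom and a prior of 8.08; the fit with 3 groups had 1 and 8.37. The genes and lists were chosen with earlier results of these data known. Named by rule were the 10 genes and list genes past the test (at most 4 a list, otherwise the 2 largest differences). The 5 profiles nearest to any of the 10 genes that passed were named too. Other list genes named above fall outside this rule and were added with their values known. Alternatives were other offsets, filters and variance models, averaged probe sets, quantile normalization and leaving out each array.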

Additional observations from a re-analysis of the deposited data

How the results depend on the processing

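The Pdk4 difference stayed positive in all 11 alternatives that tested it, between 0.66 (offset 250) and 0.99 (without control 2), and passed in 10 of them; the exception, testing every probe set, was chosen after the data were seen and left 0 of the genes called with the inhibitors. The count with the inhibitors was 0 with the 75th percentile filter, which removes Pdk4, and 1 to 2 when an array was left out, Pdha1 being added without S2101 (0.32; adjusted p = 0.0234, limma). Without the dim-gene filter, and without the intensity trend, the counts were 0 for TC, 0 for S2101 and 3 for the pathway lists. With the 75th percentile filter they were 1 for TC (Pdha1) and 0 for S2101. With averaged probe sets S2101 had 2 (Pdk4 and Pdp2). The pathway lists gave 4 to 7 when an array was left out. With an array left out Pdk3 ranged from -0.29 (without control 1; -0.02 without S2101) to 0.55 (without control 2), and Pdp1 from -0.073 (without S2101) to 0.029 (without TC; 0.02 without control 1), changing sign without passing. Other causes were not tested. Leaving out a control from the fit with 3 groups leaves no residual degrees of freedom, so no such value is given. Dim signals limit Pdk2 and Pdp2.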
